A study of Mus musculus with 11 samples.

Results

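The interferon response genes and the genes of MHC class I antigen presentation were followed as a set of 33 in the aortic arch of young mice. The members were chosen by symbol, as interferon-induced genes, class I chains and class I antigen-processing genes, with no class II genes among them. Of the 33, 31 have a row among the 19628 genes of the deposited table of scaled CPM values (a gene's counts relative to all counts of its library), and the other 2, Mx1 and Ifi44, were found in the count table of 48709 mouse genes. Bulk RNA-seq was done on aortic arches dissected at postnatal day 11. The 6 Het libraries came from mice with the G357W substitution in 1 allele of Tgfbr2, the type II receptor for TGF-beta, and the 5 WT libraries came from Tgfbr2+/+ littermates. The line models type II Loeys-Dietz syndrome, in which inherited weakness of connective tissue leads to aortic aneurysm; no treatment is listed, and strain and sex are not in the labels used here.

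Interferons are secreted proteins, of which the type I interferons are released by cells on sensing foreign nucleic acid. Type I interferons act through Ifnar1 and Ifnar2 and the kinases Jak1 and Tyk2 on a complex that holds Stat2 and Irf9 and binds the interferon-stimulated response element (ISRE) before many antiviral genes. Interferon gamma acts through its own receptor, and its signal reaches the gamma-activated site (GAS). MHC class I molecules, a heavy chain with beta-2-microglobulin, stand on nearly all nucleated cells and show peptides cut by the proteasome, carried into the endoplasmic reticulum by the Tap transporter and loaded with the help of tapasin. Class II molecules show peptides on a narrower range of cells, and their genes depend on another coactivator, Ciita, where class I genes respond to Nlrc5.

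Promoter stretches of 6 members are shown because they hold matches to the letters of these elements. Promoter windows, from 250 bases before to 50 after each gene's start, were taken from RefSeq (GRCm38.p6) and matched by symbol for 24 of the 33 members. The ISRE core was searched as GAAANNGAAA and the GAS as TTCNNNGAA, on both strands; neighbouring matches may overlap each other. Printed are the bases from 170 before the start to the last base before it, 5′ to 3′ on the strand of the gene, with matches in capitals. Isg15 (chr4:156200819-156200988, minus strand) has 3 overlapping ISRE matches, Ifit3 (chr19:34583359-34583528, plus strand) has 2 apart from each other, and Bst2 (chr8:71537473-71537642, minus strand) has 2 ISRE matches overlapping each other and a GAS. Gbp3 (chr3:142559874-142560043, plus strand) and B2m (chr2:122147517-122147686, plus strand) have ISRE matches, and Irf1 (chr11:53769844-53770013, plus strand) has a GAS.
Isg15: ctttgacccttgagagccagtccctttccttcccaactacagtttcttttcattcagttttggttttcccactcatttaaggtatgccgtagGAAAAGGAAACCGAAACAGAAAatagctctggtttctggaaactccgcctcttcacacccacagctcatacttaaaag
Ifit3: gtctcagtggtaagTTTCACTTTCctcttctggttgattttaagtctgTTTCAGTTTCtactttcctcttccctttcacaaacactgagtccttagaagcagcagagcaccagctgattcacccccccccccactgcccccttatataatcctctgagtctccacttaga
Bst2: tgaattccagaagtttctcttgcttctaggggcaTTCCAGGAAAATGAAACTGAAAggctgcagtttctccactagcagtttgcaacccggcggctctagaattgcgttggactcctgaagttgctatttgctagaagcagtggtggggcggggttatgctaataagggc
Gbp3: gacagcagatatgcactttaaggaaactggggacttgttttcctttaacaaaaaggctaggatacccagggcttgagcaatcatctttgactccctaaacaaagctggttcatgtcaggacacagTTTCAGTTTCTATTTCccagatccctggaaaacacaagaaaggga
B2m: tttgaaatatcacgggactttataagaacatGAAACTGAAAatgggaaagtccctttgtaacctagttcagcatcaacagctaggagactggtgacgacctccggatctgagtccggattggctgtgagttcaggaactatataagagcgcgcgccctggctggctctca
Irf1: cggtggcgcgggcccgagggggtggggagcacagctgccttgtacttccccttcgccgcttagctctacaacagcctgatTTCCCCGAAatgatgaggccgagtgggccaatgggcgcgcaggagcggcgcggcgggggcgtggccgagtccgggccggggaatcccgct

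An ISRE core was present in the window of 10 of the 24 members, namely B2m, Gbp2, Gbp3, Isg15, Oas1a, Bst2, Stat2, Rsad2, Ifit3 and Ifit1. Over all 27025 genes with a promoter entry the share was 3.99 percent. A GAS was present in 5 of the 24 (Oas1a, Bst2, Irf1, Psmb8 and Ifit2), against 9.55 percent of all genes. A match describes the letters only and is not evidence that a factor binds there.

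Total counts were 13162449 to 18883711 in Het libraries and 13113467 to 19327935 in WT libraries, and a count of 0 allows up to 3 counts, or 0.155 to 0.229 CPM. Levels below are CPM scaled by TMM factors, which correct for library composition. Tgfbr2 itself was at 39.0 ± 8.22 CPM in Het arches and 41.3 ± 4.29 CPM in WT arches (SD, n = 6 and 5); a substitution cannot be checked from gene counts. As cell types the labels give vascular smooth muscle and endothelium: 10 smooth muscle genes summed to 38331 to 50223 CPM in Het and 41295 to 47502 CPM in WT, and 12 endothelial genes to 502 to 821 CPM in Het and 538 to 690.4 CPM in WT. Of the 10 smooth muscle genes 0 rose and 1 fell, the contractile gene Cnn1 (log2 fold change -0.51, edgeR adjusted p = 0.0346), and 4 had positive values. None of the 12 endothelial genes passed. Their log2 fold changes were positive for 8 of 12, with a median of 0.22, beside 7258 positive of all 14757 genes. The smallest endothelial p was that of Cldn5, whose value was negative (-0.73, edgeR adjusted p = 0.0870). Of 9 fibroblast genes 4 had positive values, 0 rose and 2 fell, Pi16 (-0.62, edgeR adjusted p = 0.00194) and Fbln1 (-0.64, edgeR adjusted p = 0.0227). In the Xist-positive libraries alone these 3 calls were lost, with edgeR adjusted p-values of 0.639 for Cnn1, 0.239 for Pi16 and 0.307 for Fbln1. That fit keeps only Het 1 and Het 2 of the Het libraries, and 34 of all genes passed in it in place of 742. The log2 fold changes of Cnn1, Pi16 and Fbln1 kept their sign in every alternative. Xist, expressed from the inactive X chromosome, had 1015 and 1073 counts in Het 1 and Het 2, 0 to 10 in Het 3 to Het 6, and 900 to 1139 in all 5 WT libraries, so that no WT library resembles Het 3 to Het 6 and sex and genotype are partly confounded. The first principal component holds 23.7 percent of the variance. Het libraries lay on it at -15.9 to -10.9 and WT libraries at 3.32 to 29.9, so that it parts the genotypes. WT 1 and WT 2, at 29.9 and 28.0, also stood apart from the other libraries. Results below are given without them where that matters.

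No member of the set passed the test. Of the 33, 27 had enough counts to be tested, and by edgeR's quasi-likelihood test 0 of these 27 rose and 0 fell at an adjusted p under 0.05. Over all 14757 genes tested, 5.03 percent passed, 2.65 percent having risen and 2.38 percent having fallen in Het. At an unadjusted p under 0.05 there were 6 of 27 members (Ifit2, Rtp4, Tapbp, Stat2, B2m and Rsad2), near the 19.4 percent of all genes. DESeq2 called 1 member, Ifit2, with an adjusted p of 0.0229, and limma voom called 0. Het and WT values overlapped for every tested member, where every Het library lay above every WT library for 2.41 percent of all genes and below for 2.20 percent. For 17 of 27 members the log2 fold change was positive, and the median was 0.13 beside -0.0046 over all genes. With WT 1 and WT 2 left out, 8 of 27 were positive. RNA from bulk tissue cannot tell fewer cells of a type from less RNA per cell, for any of these genes.

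**Figure D1:**
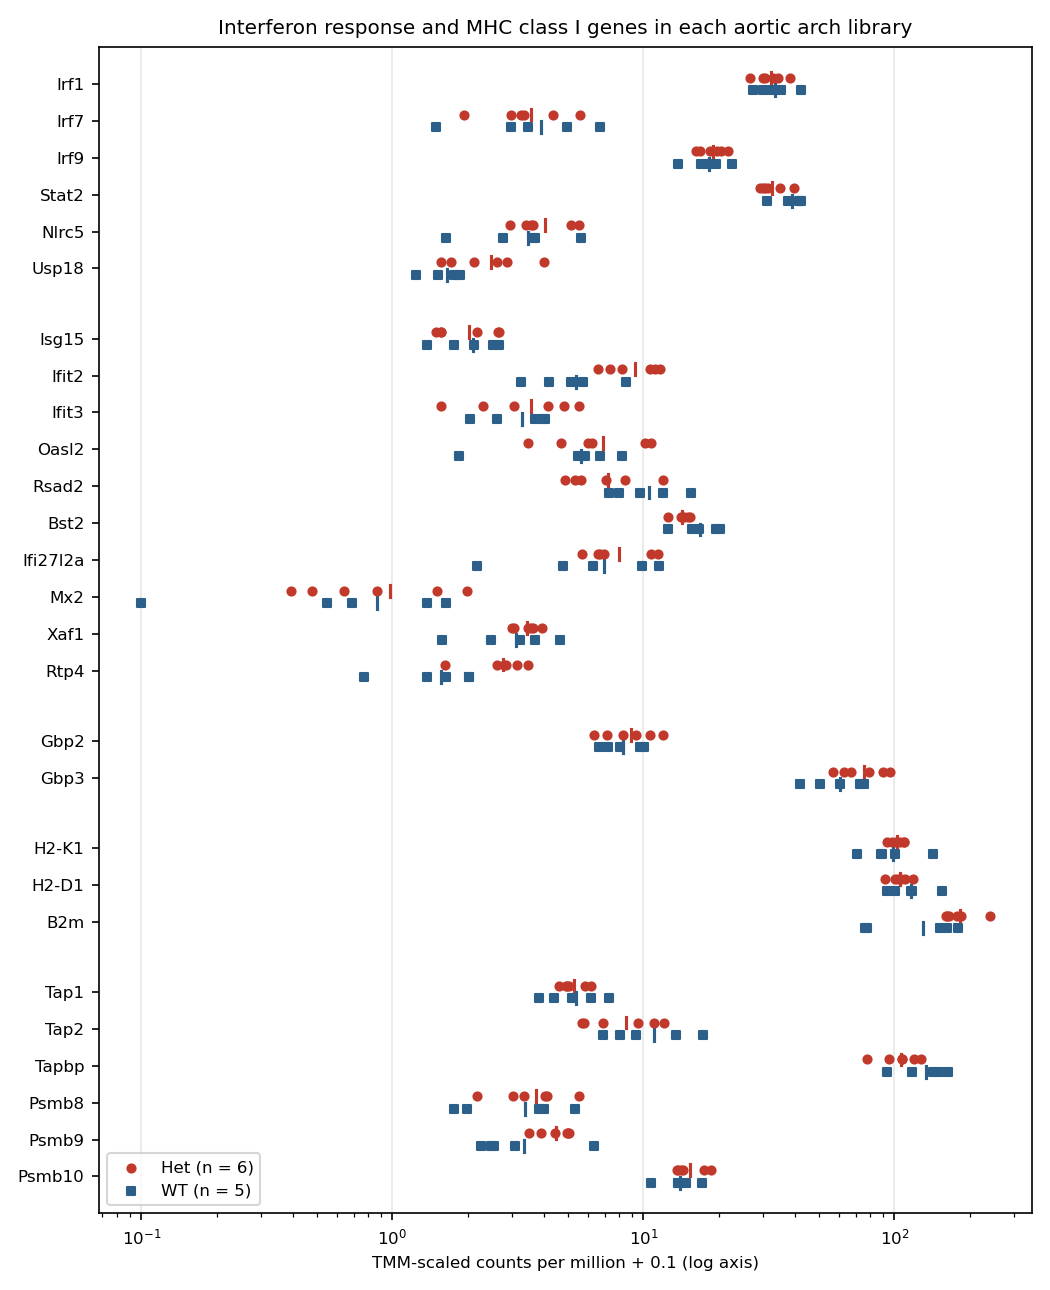
Each point is 1 library and each tick a group mean, for the 27 tested interferon and class I genes; Het libraries (red circles, n = 6) are drawn above WT libraries (blue squares, n = 5), on a log axis of TMM-scaled CPM plus 0.1. The 2 groups overlap for every gene, and levels run from under 1 CPM for Mx2 to 239 CPM for B2m in Het 6.

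The genes of the signalling arm were all present, and none passed the test. Stat2 (ENSMUSG00000040033, chr10:128270559-128292849, plus strand), a subunit of the ISRE-binding complex, had a lowest, median and highest value of 29.1, 30.8 and 39.9 CPM in Het arches. The WT libraries 1 to 5 had 37.5, 41.9, 42.3, 41.4 and 31.1 CPM. All Het values but that of Het 6 lay below the 4 highest WT values, and WT 5 lay among the Het libraries. The means were 32.5 ± 4.11 and 38.8 ± 4.74 CPM in Het and WT (SD, n = 6 and 5), with a log2 fold change of -0.26 (95% interval -0.49 to -0.02) and an adjusted p of 0.219 in edgeR's quasi-likelihood test.

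Usp18 (ENSMUSG00000030107, chr6:121245906-121270917, plus strand) is a protease that removes Isg15 from proteins and dampens signalling at the type I receptor. It had 1.46, 2.26 and 3.91 CPM as the lowest, median and highest Het value. The 5 WT libraries had 1.66, 1.14, 1.75, 1.76 and 1.42 CPM. The WT values were close together and Het 6 was far above them, while Het 3 and Het 4 lay within their range. Its log2 fold change was 0.62 (95% interval -0.01 to 1.26), with an adjusted p of 0.270 in edgeR's test.

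Irf9, the DNA-binding subunit beside Stat2, averaged 18.8 ± 2.10 CPM in Het and 18.1 ± 3.25 CPM in WT (SD, n = 6 and 5), a log2 fold change of 0.06 (95% interval -0.23 to 0.34). Irf1, a factor induced by interferon gamma, averaged 32.0 ± 4.05 CPM in Het and 33.4 ± 5.81 CPM in WT, with an interval of -0.33 to 0.21 on the log2 scale. As fold changes these intervals were 0.852 to 1.27 for Irf9 and 0.798 to 1.15 for Irf1. Irf7, the factor that amplifies type I interferon production, varied more, with 1.84 to 5.47 CPM in Het and 1.39 to 6.61 CPM in WT and an interval of -0.88 to 0.59. Nlrc5, the coactivator of class I genes, averaged 3.94 ± 1.05 CPM in Het and 3.38 ± 1.47 CPM in WT, a log2 fold change of 0.21 (95% interval -0.41 to 0.83). Adjusted p-values of these 4 genes were 0.760 to 0.877 in edgeR's test. Irf7 overlaps Phrf1 and Irf9 overlaps Rnf31 in the annotation, so their counts may hold reads of these genes.

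Among the antiviral effectors, 10 of 16 could be tested and for 7 of the 10 the log2 fold change was positive, the median being 0.15. Of these 7, only Ifit2 and Rtp4 stayed positive without WT 1 and WT 2. Ifit3, Oasl2, Ifi27l2a, Mx2 and Xaf1 were then negative. Ifit2 (ENSMUSG00000045932, chr19:34550694-34576419, plus strand), a tetratricopeptide protein that limits the translation of viral RNA, had the smallest p of the whole set. Its lowest, median and highest values were 6.47, 9.33 and 11.5 CPM in Het arches. The WT libraries 1 to 5 had 5.03, 3.15, 5.65, 8.45 and 4.11 CPM. All 6 Het values exceeded 4 of the 5 WT values, and WT 4 lay above Het 1, Het 3 and Het 5. The means were 9.15 ± 2.14 and 5.28 ± 2.01 CPM in Het and WT (SD, n = 6 and 5), 1.73-fold (95% interval 1.21 to 2.47), with an unadjusted p of 0.0049 and an adjusted p of 0.0737 in edgeR's quasi-likelihood test. The call turned on WT 4: without it the log2 fold change was 1.02 with an adjusted p of 0.0162, and over all alternatives the adjusted p was 0.0162 to 0.452.

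Rtp4 (ENSMUSG00000033355, chr16:23520291-23614222, plus strand), a chaperone of membrane receptors that interferon induces, had 1.52, 2.71 and 3.38 CPM as the lowest, median and highest Het value. WT libraries 1 to 5 had 1.92, 1.54, 0.667, 1.91 and 1.27 CPM. Only Het 5 lay within the WT range, the other Het libraries lying above it. A log2 fold change of 0.86 (95% interval 0.19 to 1.53) had an adjusted p of 0.137 in edgeR's test. The annotated span of Rtp4 overlaps Masp1 on the other strand, and these unstranded libraries cannot tell reads of overlapping genes apart.

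Rsad2, also known as viperin, which makes a chain-terminating nucleotide, had a negative value that did not pass. It had 4.79 to 11.8 CPM in Het and 7.17 to 15.4 CPM in WT, a log2 fold change of -0.55 (95% interval -1.09 to -0.01; edgeR adjusted p = 0.245). Bst2, or tetherin, which holds budding virus at the cell surface, had 12.5 to 15.2 CPM in Het and 12.4 to 20.1 CPM in WT, a log2 fold change of -0.24 (95% interval -0.53 to 0.04; edgeR adjusted p = 0.338). The effectors of the set thus did not lie on 1 side: the 2 smallest unadjusted p-values belonged to positive values and the third smallest to a negative one. Isg15, the ubiquitin-like modifier with 3 ISRE matches, averaged 1.91 ± 0.55 CPM in Het and 1.99 ± 0.54 CPM in WT (SD, n = 6 and 5), with an interval of -0.68 to 0.56 on the log2 scale. Ifit3, which stabilizes other Ifit proteins on RNA in human cells, averaged 3.48 ± 1.54 CPM in Het and 3.18 ± 0.90 CPM in WT, with an interval of -0.55 to 0.81. Their edgeR adjusted p-values were 0.949 and 0.872.

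Oasl2, a relative of the 2',5'-oligoadenylate synthetases that sense double-stranded RNA, had 3.36 to 10.6 CPM in Het and 1.74 to 8.11 CPM in WT. Ifi27l2a, which encodes a small membrane protein, had 5.62 to 11.4 CPM in Het and 2.08 to 11.4 CPM in WT. In both, the lowest library was WT 2. Xaf1, a pro-apoptotic antagonist of Xiap, had 2.90 to 3.84 CPM in Het and 1.47 to 4.56 CPM in WT, and Mx2, a dynamin-like GTPase that the annotation lists as a polymorphic pseudogene, had 0.294 to 1.87 CPM in Het and 0 to 1.54 CPM in WT. The log2 fold changes of these 4 genes were 0.15 to 0.29, with edgeR adjusted p-values of 0.715 to 0.942.

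The other 6 effectors were at or near the limit of detection. Ifit1, which binds RNA caps that lack a methyl group, had 16, 10, 5, 0, 5 and 3 counts in Het 1 to Het 6, and 0, 0, 2, 0 and 5 counts in WT 1 to WT 5. Oas1a had 14 counts over the Het libraries and 2 over the WT libraries, and Oas2 had 18 and 2; both encode oligoadenylate synthetases. Zbp1, a sensor of Z-form nucleic acid, had 24 counts over the Het and 19 over the WT libraries, and Ifi44 had 4 and 7. Mx1, a GTPase gene inactivated by mutation in most laboratory mouse strains, had 1 count over the Het and 8 over the WT libraries. These genes were too low for the filter; in a fit without a filter on low counts, Ifit1, Oas1a, Oas2 and Mx1 had unadjusted p-values of 0.0359, 0.0733, 0.0373 and 0.0490 and edgeR adjusted p-values of 0.314 to 0.405.

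**Figure D2:**
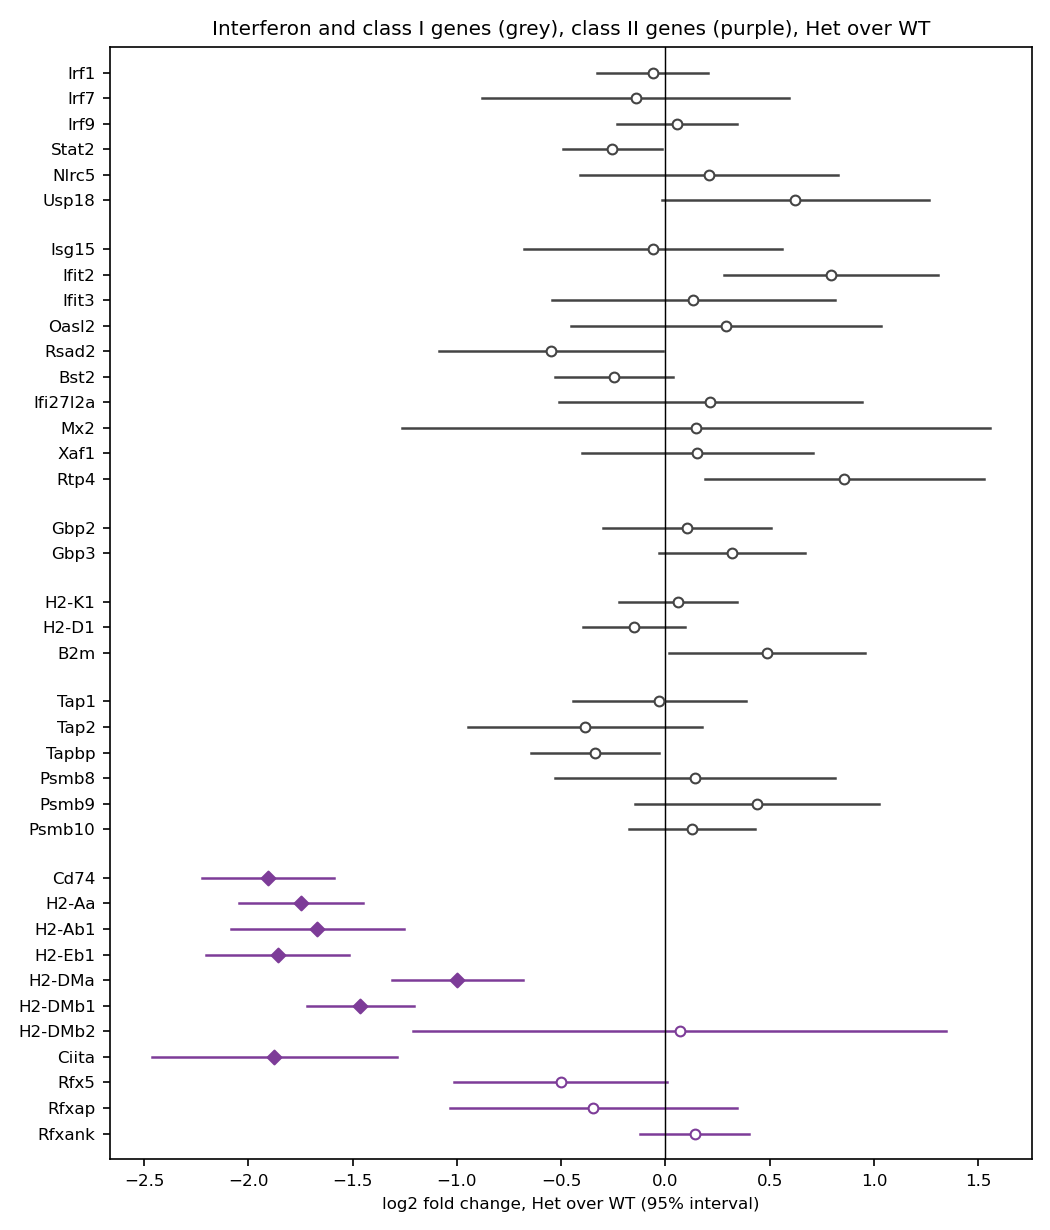
Points are log2 fold changes of Het over WT with their 95% intervals, by edgeR's quasi-likelihood test, for the 27 tested interferon and class I genes (grey) and 11 tested class II genes (purple); filled diamonds passed an adjusted p under 0.05 and open circles did not. All grey points are open and lie between -0.55 and 0.86, while 7 class II genes lie at -0.999 or lower.

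The guanylate-binding proteins are GTPases that attack the membranes around intracellular microbes. Gbp3 (ENSMUSG00000028268, chr3:142560026-142573209, plus strand), the highest member per kilobase of exon outside the class I pathway, had 57.0, 72.9 and 95.8 CPM as the lowest, median and highest Het value. WT libraries 1 to 5 had 75.7, 42.1, 60.4, 72.9 and 50.4 CPM. Het 1, Het 2 and Het 6 lay above all WT libraries and the other 3 Het libraries within their range. Gbp3 had a log2 fold change of 0.32 (95% interval -0.03 to 0.67) with an adjusted p of 0.310 in edgeR's test. Gbp2 (ENSMUSG00000028270, chr3:142620602-142638008, plus strand) had 6.27, 8.69 and 11.9 CPM as the lowest, median and highest Het value, and 6.56, 7.97, 9.91, 9.55 and 7.10 CPM in WT 1 to WT 5. Both groups covered nearly the same range, with a log2 fold change of 0.10 (95% interval -0.30 to 0.51; edgeR adjusted p = 0.827).

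The class I heavy chains were abundant, and neither passed the test. H2-K1 (ENSMUSG00000061232, chr17:33996017-34000347, minus strand) had 92.9, 103 and 109 CPM as the lowest, median and highest value in Het arches. WT libraries 1 to 5 had 71.1, 89.2, 99.96, 141.9 and 88.5 CPM. The Het libraries were tightly grouped inside the WT range, which WT 1 and WT 4 opened at its ends. The means were 102 ± 6.22 and 98.1 ± 26.6 CPM in Het and WT (SD, n = 6 and 5), a log2 fold change of 0.06 (95% interval -0.22 to 0.35) with an adjusted p of 0.864 in edgeR's test. Without WT 1 the value was -0.04.

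H2-D1 (ENSMUSG00000073411, chr17:35262730-35267499, plus strand) had 91.8, 104 and 119 CPM as the lowest, median and highest Het value, and 93.7, 100.2, 117, 155 and 117 CPM in WT 1 to WT 5. WT 4 was the highest library, and the other 10 libraries lay close together, with Het 6 the lowest. For H2-D1 the log2 fold change was -0.15 (95% interval -0.40 to 0.09; edgeR adjusted p = 0.526). H2-K1 and H2-D1 are close in sequence, and how reads common to both were counted is not given in the sources used here.

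B2m (ENSMUSG00000060802, chr2:122147686-122153083, plus strand), the light chain of every class I molecule, was the highest member per kilobase of exon. Its annotated span overlaps Patl2 on the other strand. It had 160.2, 171 and 239 CPM as the lowest, median and highest Het value. In WT 1 to WT 5 it had 76.1, 77.3, 152, 179.7 and 161.5 CPM. WT 1 and WT 2 lay far below all other libraries, and the remaining 3 WT libraries lay close to the Het libraries. The means were 181 ± 29.8 and 129 ± 49.1 CPM in Het and WT (SD, n = 6 and 5), 1.40-fold (95% interval 1.01 to 1.94), with an unadjusted p of 0.0431 and an adjusted p of 0.238 in edgeR's test. Without WT 1 and WT 2 the log2 fold change was 0.14, against 0.49 with all libraries.

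Of the 6 processing genes, 3 had positive and 3 negative log2 fold changes, and none passed the test. Tapbp (ENSMUSG00000024308, chr17:33915899-33929292, plus strand) encodes tapasin, which ties empty class I molecules to the Tap transporter, and its span overlaps Zbtb22. It had 78.0, 107 and 128 CPM as the lowest, median and highest Het value. Values in WT 1 to WT 5 were 163, 151, 142, 117 and 93.1 CPM. WT 1, WT 2 and WT 3 lay above all Het libraries, and WT 4 and WT 5 among them. The log2 fold change was -0.34 (95% interval -0.64 to -0.03), with an adjusted p of 0.212 in edgeR's test; without WT 1 and WT 2 it was -0.15. B2m and Tapbp, both parts of class I assembly, thus differed in the sign of their values, with WT 1 and WT 2 at the low end for B2m and at the high end for Tapbp.

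Psmb9 (ENSMUSG00000096727, chr17:34181987-34187764, minus strand) is a catalytic subunit of the immunoproteasome, the form that interferon gamma induces. It had 3.38, 4.59 and 4.95 CPM as the lowest, median and highest Het value. WT libraries 1 to 5 had 2.45, 2.14, 2.36, 6.25 and 2.99 CPM. Every Het library lay above 4 of the 5 WT libraries and below WT 4. The log2 fold change was 0.44 (95% interval -0.15 to 1.02) with an adjusted p of 0.415 in edgeR's test, and WT 4 moved this too: without it the value was 0.81 with an adjusted p of 0.0416, and over all alternatives the adjusted p was 0.0416 to 0.823. Psmb9 overlaps the start of Tap1 on the other strand, so reads of the 2 genes cannot be fully told apart.

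The other catalytic immunoproteasome subunits, Psmb8 and Psmb10, averaged 3.62 ± 1.15 and 15.2 ± 2.17 CPM in Het, and 3.28 ± 1.497 and 13.9 ± 2.28 CPM in WT (SD, n = 6 and 5). Their intervals were -0.53 to 0.81 for Psmb8 and -0.18 to 0.43 for Psmb10 on the log2 scale. Tap1 and Tap2, the subunits of the peptide transporter, averaged 5.17 ± 0.62 and 8.38 ± 2.75 CPM in Het, and 5.29 ± 1.38 and 10.9 ± 4.31 CPM in WT. The interval of Tap1 was -0.45 to 0.38 and that of Tap2 -0.95 to 0.18. Adjusted p-values of these 4 genes were 0.467 to 0.961 in edgeR's test.

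Per kilobase of annotated exon, the only scale on which genes are compared here, B2m and H2-D1 led the set in both groups. B2m stood at 211 CPM per kb in Het and 150.4 CPM per kb in WT, H2-D1 at 40.7 in Het and 45.2 in WT, and H2-K1 at 34.8 in Het and 33.4 in WT. Tapbp stood at 29.1 CPM per kb in Het and 36.7 in WT, below H2-K1 in Het and above it in WT, and Gbp3 at 23.1 in Het and 18.5 in WT. Bst2 and Ifi27l2a were the highest antiviral effectors, at 15.7 and 17.1 CPM per kb in Het and 18.6 and 14.8 in WT. Psmb9, Psmb8 and Tap1 were far lower, at 0.944 to 1.19 CPM per kb in Het and 0.885 to 0.969 in WT. The chains were thus at least an order of magnitude above the immunoproteasome subunits Psmb8 and Psmb9 in both groups.

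Class II genes behaved differently in the same libraries. Of 11 class II genes tested, 7 fell in Het, namely Cd74, the invariant chain, H2-Aa, H2-Ab1, H2-Eb1, H2-DMa, H2-DMb1 and Ciita, with a list median of -1.46 on the log2 scale; the fall of Cd74 was known when the comparison was chosen. Cd74 had 91.4, 103 and 144 CPM as the lowest, median and highest Het value, and 409.9, 414, 529, 272 and 392.1 CPM in WT 1 to WT 5. The ratio of H2-K1 to Cd74 was 0.752, 1.01 and 1.02 as the lowest, median and highest Het value, and 0.173, 0.215, 0.189, 0.521 and 0.226 in WT 1 to WT 5. Het 1 was below the other 5 Het libraries, whose ratios lay close together, and every WT ratio was below every Het ratio. These ratios are of CPM without correction for exon length. They compare libraries and do not show which of the 2 genes was at the higher level. The mean log2 ratio was -0.06 ± 0.17 in Het and -2.05 ± 0.64 in WT (SD, n = 6 and 5), a difference of 1.99 with p = 0.002165 in an exact two-sided permutation test, the smallest p that 462 assignments allow. For B2m to Cd74 the mean log2 ratio was 0.75 ± 0.28 in Het and -1.70 ± 0.78 in WT, a difference of 2.46 with the same exact permutation p = 0.002165. A ratio shows that the 2 genes differed between genotypes by unequal amounts, and not which of them stayed the same. Taken by itself, without a ratio, Cd74 already had every Het library below every WT library, and this was known beforehand. Both permutation p-values therefore largely restate the fall of Cd74. They are no separate support for a difference between class I and class II genes. With the Xist-positive libraries alone, 4 of the class II genes passed the edgeR threshold in place of 7.

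**Figure D3:**
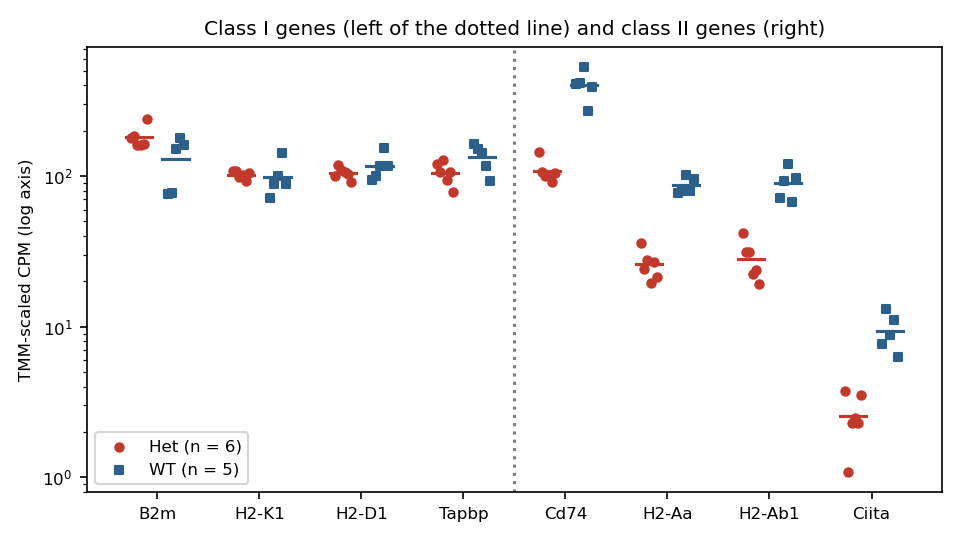
TMM-scaled CPM on a log axis of 4 class I genes, left of the dotted line, and 4 class II genes, right of it; each point is 1 library, Het in red (n = 6) to the left of WT in blue (n = 5), and bars are group means. The groups overlap for B2m, H2-K1, H2-D1 and Tapbp and are apart for Cd74, H2-Aa, H2-Ab1 and Ciita, where all Het libraries are lower.

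Upstream of the set, interferon transcripts were scarcely detected. Of 12 interferon genes, Ifne had 4 counts over the Het and 7 over the WT libraries, Ifnk had 2 and 0, and Ifna5 had 1 and 0, while the other 9, Ifnb1 and Ifng among them, had no count in any library. The receptors and kinases were present: Ifnar1 averaged 50.7 ± 6.53 CPM in Het and 52.7 ± 6.48 CPM in WT (SD, n = 6 and 5), and Ifngr1 118 ± 10.1 CPM in Het and 133 ± 11.5 CPM in WT. Of 8 tested receptor and kinase genes, 0 rose and 0 fell, against 2.65 and 2.38 percent of all genes; the smallest p was that of Tyk2, with 27.8 ± 5.51 CPM in Het and 36.6 ± 7.56 CPM in WT (SD, n = 6 and 5; log2 fold change -0.40, edgeR adjusted p = 0.158). Of 14 tested nucleic acid sensors and adaptors 0 rose and 0 fell, the smallest p belonging to Mavs (log2 fold change -0.14, edgeR adjusted p = 0.425). A further list of 9 genes mixed feedback genes, such as Socs1, with interferon-induced genes, such as Isg20. In it 0 rose and 0 fell, the smallest p belonging to Isg20 (-0.57, edgeR adjusted p = 0.231).

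Outside the 33, some interferon-induced genes did pass the test, in both directions. Of 36 tested among 49 other interferon-induced genes, 3 rose and 1 fell, beside 2.65 and 2.38 percent of all genes, with a median of 0.14 on the log2 scale beside -0.0046 over all genes. Ifitm3, which blocks fusion of viruses with cell membranes, rose, with 189.6 to 243 CPM in Het and 128 to 193.6 CPM in WT (log2 fold change 0.46, edgeR adjusted p = 0.0206). Ifi47, an immunity-related GTPase, rose, with 9.69 to 13.6 CPM in Het and 5.69 to 9.53 CPM in WT, the groups not overlapping (0.67, edgeR adjusted p = 0.0243). Lgals3bp, a secreted galectin-binding glycoprotein, rose, with 5.46 to 12.6 CPM in Het and 4.41 to 5.95 CPM in WT (0.84, edgeR adjusted p = 0.0333). Gbp4, of the same protein family as Gbp2 and Gbp3, fell, with 4.04 to 7.85 CPM in Het and 7.90 to 13.4 CPM in WT, again without overlap (-0.92, edgeR adjusted p = 0.0150). Beside it Gbp2 and Gbp3 had values of 0.10 and 0.32 and did not pass; whether Gbp4 differs from them was not tested.

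These calls were near the threshold. Left out singly, Het 2 or WT 2 ended the call of Ifitm3, with edgeR adjusted p-values of 0.0509 and 0.0616, and Het 2, Het 6 or WT 2 ended that of Ifi47, with 0.0545, 0.0551 and 0.0635. Lgals3bp lost its call without Het 1, Het 2, Het 3, Het 6, WT 2, WT 3 or WT 5 (edgeR adjusted p up to 0.08295). The call of Gbp4 stood with any single library left out, but was lost in 3 of 25 alternatives. Over all alternatives its log2 fold change was -1.04 to -0.70 and its adjusted p at most 0.485. With the sex score as a covariate the edgeR adjusted p of Gbp4 was 0.331, where 123 of all genes passed in place of 742. With that covariate Ifitm3 had an edgeR adjusted p of 0.120 and Ifi47 of 0.131. Gbp4 and Ifitm3 have close relatives beside them in the genome, and reads may have been split among these.

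Among further class I genes, 2 fell. Of 9 tested among 15 other class I chain genes, 0 rose and 1 fell. With 2.65 percent of all genes having risen and 2.38 percent having fallen, 0 risen genes in lists of this size is near the background. The gene that fell was H2-T23, which encodes the non-classical molecule Qa-1 that is read by NK cell receptors. It had 7.04 to 9.70 CPM in Het and 9.73 to 15.1 CPM in WT, every Het library lying below every WT library (log2 fold change -0.60, edgeR adjusted p = 0.0320). Of 8 other loading genes 0 rose and 1 fell, Tapbpl, a tapasin relative that edits peptides, with 13.2 ± 1.48 CPM in Het and 19.6 ± 4.54 CPM in WT (SD, n = 6 and 5; -0.58, edgeR adjusted p = 0.0345). In the same list Calr, the chaperone calreticulin, had 349 to 364 CPM in Het and 272 to 339.7 CPM in WT. Every Het library lay above every WT library, but Calr did not pass (0.20, edgeR adjusted p = 0.144). Erap1, also of this list, had 19.9 to 22.6 CPM in Het and 23.2 to 26.5 CPM in WT. For Erap1, as for Tapbpl, every Het library lay below every WT library, but Erap1 did not pass (-0.30, edgeR adjusted p = 0.0786). Left out singly, Het 2, Het 4, Het 5, Het 6, WT 2, WT 3 or WT 4 ended the call of H2-T23 (edgeR adjusted p up to 0.0851), and Het 2 to Het 6, WT 1 or WT 4 that of Tapbpl (up to 0.0799). With the sex score as a covariate both were lost, with edgeR adjusted p-values of 0.466 and 0.470. Of 14 constitutive proteasome subunits 0 rose and 0 fell, the smallest p being that of Psmb5 (log2 fold change -0.31, edgeR adjusted p = 0.227).

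The mean level of the set overlapped between the genotypes. Averaged over the 27 tested members as log2 CPM about the mean of all libraries, Het 1 to Het 6 stood at 0.24, 0.20, 0.05, -0.11, -0.14 and 0.15. WT 1 to WT 5 stood at -0.27, -0.39, 0.11, 0.25 and -0.09. The extremes of the set were both WT: WT 2 held the lowest value of 11 of the 27 members and WT 1 that of 6, where these libraries were lowest for 12.6 and 14.5 percent of all genes. WT 4 held the highest value of 6 members, against 7.41 percent of all genes. The coefficient of variation was larger in WT than in Het for 20 of 27 members, or 74.07 percent, where the share over all genes was 60.3 percent. Without WT 1 and WT 2, only 8 of 27 members had a positive log2 fold change in place of 17, and the number that passed was still 0.

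**Figure D4:**
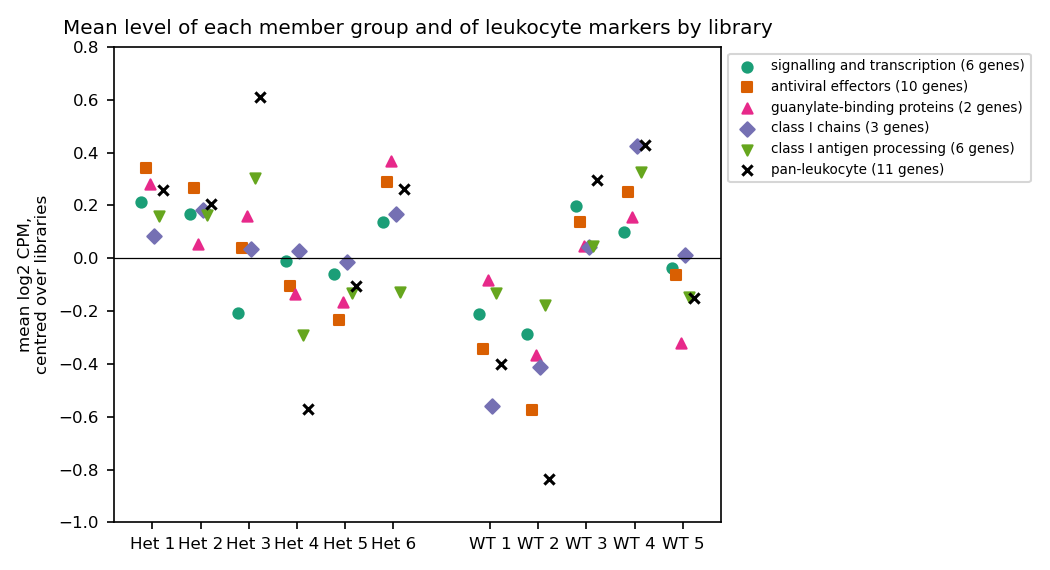
Mean log2 CPM of the tested members of each group of genes in each library, centred on the mean of the 11 libraries, with the 11 tested pan-leukocyte genes as black crosses; Het libraries are left of WT libraries. WT 1 and WT 2 lie below 0 for all 5 interferon and class I groups and for leukocyte genes, and WT 4 above 0.

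Leukocyte transcripts varied over the same libraries. The pan-leukocyte genes, such as Ptprc and Laptm5, stood at -0.40 in WT 1, -0.84 in WT 2 and 0.43 in WT 4 on the same centred scale, and at -0.57 in Het 4 and 0.61 in Het 3, the lowest and highest Het libraries. Their 12 genes summed to 65.99 to 104.9 CPM in Het and 47.8 to 96.3 CPM in WT, and of 11 tested 0 rose and 0 fell, Lcp1 having the smallest p (log2 fold change 0.84, edgeR adjusted p = 0.164). Of 11 macrophage genes tested, Mertk alone rose (0.54, edgeR adjusted p = 0.00979) and 0 fell. The call of Mertk was lost in the Xist-positive libraries (edgeR adjusted p = 0.0944), with the replicate block (0.0608), when WT 1 and WT 2 were left out together (0.0574) and with the column-name number as a covariate (0.0564). T cell genes summed to 13.5 to 53.7 CPM in Het and 8.44 to 24.7 CPM in WT. Het 3 and Het 6, at 53.7 and 46.3 CPM, lay above all WT libraries, and the other Het libraries lay within the WT range. Genes of a list share these libraries and are not separate observations. Of the T cell genes 0 of 7 were called. The smallest p was that of Thy1 (0.46, edgeR adjusted p = 0.353). Thy1 averaged 12.2 CPM in Het and 8.89 CPM in WT, a large part of these sums. Log2 fold changes were positive for 7 of 7 T cell, 10 of 11 macrophage and 8 of 11 pan-leukocyte genes. They were positive for 0 of 4 B cell, 1 of 3 dendritic, 1 of 4 plasmacytoid dendritic and 0 of 1 neutrophil genes. Bst2 and Irf7 of the plasmacytoid dendritic list are themselves members of the set, so that list is not separate from it. Over all 14757 genes 7258 were positive. Of B cell, dendritic cell, plasmacytoid dendritic cell and neutrophil genes, 4, 3, 4 and 1 were tested and 0 called, the smallest p in each list belonging to Ighm, Xcr1, Bst2 and S100a9 (edgeR adjusted p = 0.430, 0.307, 0.338 and 0.499). NK cell genes summed to at most 0.514 CPM in Het and 0.667 CPM in WT, with 0 of 8 tested for want of counts. The part of leukocyte content in the members' values was not tested beyond a fit with the pan-leukocyte score as a covariate, in which 0 of 27 members passed and the values of B2m and Ifit2 were 0.40 and 0.75.

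Pairs of genes with related roles were compared across the 11 libraries, which share their preparation and depth between the genes of a pair. For 11 pairs Pearson's r and Spearman's rho were computed on log2 CPM, and none passed after Benjamini-Hochberg adjustment over the pairs. Irf7 and Isg15 had r = 0.65 (permutation p = 0.0326, adjusted 0.0914) and rho = 0.68 (permutation p = 0.0258, adjusted 0.111), and r = 0.69 without WT 1 and WT 4, the libraries farthest from the median of Irf7. H2-K1 and B2m had r = 0.68 (permutation p = 0.0173, adjusted 0.0914) and rho = 0.76 (permutation p = 0.00904, adjusted 0.0994), and r = 0.63 without WT 1 and WT 4. H2-K1 and H2-D1 had r = 0.69 (permutation p = 0.0360, adjusted 0.0914) but rho = 0.37 (permutation p = 0.263, adjusted 0.413); without WT 1 and WT 4 r was -0.11, so that this relation rests on those 2 libraries. Nlrc5 and H2-K1, a coactivator and its target, had r = 0.01 (permutation p = 0.973, adjusted 0.973) and rho = -0.08 (permutation p = 0.819, adjusted 0.819), and r = -0.24 without WT 2 and WT 3. Within the 6 Het libraries these 4 pairs had r = 0.64, 0.48, 0.03 and 0.16. Among the 7 Xist-positive libraries they had 0.66, 0.75, 0.82 and 0.02. Psmb8 and Psmb9 had the largest r of the 11 pairs, 0.70 (permutation p = 0.0208, adjusted 0.0914), and 0.44 without WT 1 and WT 2. Tap1 and Psmb9, which overlap, had r = 0.62 (permutation p = 0.0415, adjusted 0.0914), and 0.19 without WT 2 and WT 4. The remaining pairs had r of -0.22 to 0.52.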

How the data were processed

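RNA was extracted with TriPure and PureLink, and unstranded Nextera XT libraries were sequenced as 75 nt single reads on a NextSeq 500 in a pair of runs, per the labels' protocols; the runs cannot be told apart in the files. The submitters' processing notes list the GRCm38 build and the tools STAR 2.5.2a, limma, edgeR and DESeq2, without roles; for the counter and annotation no source used here gives a name. Raw counts deposited by the authors cover 48709 mouse genes, and 24 other rows with 4 to 11 counts a library were left out. A second deposited count table holds a subset of these rows with identical values. The deposited table of scaled CPM, a signal that the authors normalized by TMM per the file headers, sums to 966683 to 1026471 a library and was used to find the members and for 1 alternative test. Symbols and positions came from GENCODE M21 (GRCm38, counted from 1), matched for 48349 genes.

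Genes were kept by filterByExpr (minimum count 10, minimum total 15), scaled by TMM factors of 0.979 to 1.03, and tested, Het against WT in all 11 libraries with no covariate, with edgeR 4.0.16 (R 4.3.3) by its quasi-likelihood F test in the robust form, with Benjamini-Hochberg adjustment over all 14757 genes and a threshold of 0.05. A standard error is the log2 fold change divided by the square root of F, and intervals are 95% by the t distribution. Each library was treated as 1 animal, since the series' description gives as many mice as libraries; counting floors cover counting error only. The test was checked on simulated counts. Ratios were tested by exact permutation, and correlations by permutation (100000 resamples with 10 or more libraries, scipy 1.17.1). Alternatives were RLE and upper quartile scaling, DESeq2 1.42.0, limma 3.58.1 voom and trend, other filters, covariates (a sex score from Y-linked genes and Xist, a pan-leukocyte score, the number in the column names), the libraries with at least 100 Xist counts, the fit without WT 1 and WT 2, a replicate block and each library left out. The same alternatives for genes outside the 33, and the correlations over the Xist-positive libraries, were added after seeing the data. The members, the lists and the tests were chosen with earlier results of these data known. Values in every library are given for the pair of members of smallest p in each group of roles and for the class I chains, by rule; Rsad2 and Ifit1 were given in more detail after their values were seen, and Cd74 as the class II gene to compare with. Of other lists, the rule named each gene past the threshold, up to 4 in a list by p, or else that of smallest p. The other class II genes that passed are named beside them. Calr and Erap1 were added after their values were seen, and Ifnar1 and Ifngr1 were added.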

Additional observations from a re-analysis of the deposited data

Results flagged for a closer look

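A library far from the others of its group was found in 4 of 58 groups of values examined (each tested member in each genotype, and the ratios to Cd74), where chance gives about 1 group in 20. B2m was at 239 CPM in Het 6, the nearest Het library being at 184.6 CPM and the lowest at 160.2 CPM. Psmb9 was at 6.25 CPM in WT 4, where the nearest WT library was at 2.99 CPM and the lowest at 2.14 CPM. The ratio of H2-K1 to Cd74 was 0.752 in Het 1, with the nearest Het library at 0.983, and 0.521 in WT 4, with the nearest WT library at 0.226. WT 4 had the highest H2-K1 and the lowest Cd74 of the WT libraries, and Het 1 had the highest Cd74 of the Het libraries.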

How the results depend on the processing

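In 25 alternatives 0 of the 33 members fell in any, and the number that rose was 0 except for 1 by DESeq2 (Ifit2) and 0 to 2 with single libraries left out, the 2 being Ifit2 and Psmb9 without WT 4. The number of all genes that rose or fell, 742, was 1295 by DESeq2, 123 with the sex score, 34 in the Xist-positive libraries, 432 without WT 1 and WT 2, 415 with the column-name number, 332 with the replicate block and 458 to 853 with single libraries left out. The replicate numbers are not said to pair animals. Correlations were -0.21 to 0.06 between same-numbered libraries and -0.15 to 0.15 between the others, which cannot settle whether any pairing exists. The replicate block changed no member's call. Of the 27 tested members 13 kept the sign of their log2 fold change in all alternatives. The others are small values that passed no test, and the cause of their sign changes was not tested. Reversed were Tap1 (0.010) by limma voom; Irf1 (0.054), Irf7 (0.28), Isg15 (0.17), Gbp2 (-0.070) and Tap1 (0.044) with the sex score; Irf1 (0.047), Irf7 (0.35), Isg15 (0.21), Gbp2 (-0.080) and Tap1 (0.030) in the Xist-positive libraries; Ifit3 (-0.028) and Psmb8 (-0.095) with the leukocyte score; Nlrc5 (-0.074), Mx2 (-0.47) and Tap1 (0.052) with the column-name number; and Ifit3 (-0.088) and Tap1 (0.037) with the replicate block. Without WT 1 and WT 2 there were 11: Irf1 (0.11), Irf9 (-0.090), Nlrc5 (-0.011), Ifit3 (-0.13), Oasl2 (-0.019), Ifi27l2a (-0.20), Mx2 (-0.020), Xaf1 (-0.060), Gbp2 (-0.0064), H2-K1 (-0.11) and Psmb8 (-0.24). With single libraries left out the ranges that crossed 0 were -0.13 to 0.039 for Irf1, -0.36 to 0.14 for Irf7, -0.032 to 0.14 for Irf9, -0.18 to 0.055 for Isg15, -0.036 to 0.29 for Ifit3, -0.016 to 0.48 for Ifi27l2a, -0.17 to 0.58 for Mx2, -0.022 to 0.35 for Xaf1, -0.036 to 0.23 for H2-K1, -0.13 to 0.10 for Tap1 and -0.026 to 0.37 for Psmb8. Among correlations, r turned to 0.28 for Stat2 with Irf9 and 0.30 for Irf1 with Gbp2 in the 6 Het libraries, and to -0.11 for H2-K1 with H2-D1 and -0.24 for Nlrc5 with H2-K1 without the 2 farthest libraries. The ratio differences, 1.99 and 2.46, were 1.87 to 2.26 and 2.28 to 2.73 with single libraries left out. Other interferon-induced genes that rose numbered 1 with the sex score, and 0 with the column-name number or the replicate block, without WT 1 and WT 2, or in the Xist-positive libraries. Depth limits the 6 members with too few counts to test, and the effectors at 1 to 4 CPM, whose intervals were wide.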
